A study of Mus musculus with 3 samples.

Results

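The respiratory chain and ATP synthase genes are the nuclear genes whose symbols begin with Ndufa, Ndufb, Ndufc, Ndufs, Ndufv, Ndufaf, Uqcr, Atp5 or Cox4i to Cox8, together with Sdha to Sdhd, Cyc1 and Cycs. Every probe set whose annotation gave exactly 1 such symbol was taken, which found 92 genes on 184 probe sets, out of 18193 genes with a single symbol. Of the 92 genes, 34 encode subunits of complex I, 4 of complex II, 9 of complex III, 17 of complex IV and 17 of complex V. The others are cytochrome c (Cycs), 2 genes of the Ndufa4 family and 8 assembly factors of complex I. A further 10 probe sets that list a member gene beside another symbol were left aside. The complex IV subunit Cox7b was not analysed here.

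RNA came from the genital tubercle, the outgrowth that forms the external genitalia, of 3 mouse embryos on embryonic day 14 (Theiler stage 22), each on 1 Affymetrix MOE430 array. FVB/N mothers had been mated with males carrying the SMAA/EYFP transgene, a fluorescent reporter of smooth muscle actin, and the region was dissected by its fluorescence. All 3 samples are labelled male and transgenic, none was pooled, and they form 1 group with no treatment or control. The landmark is the label that differs: fingers were visible in replicate 3, while the footplate borders were only indented in replicates 1 and 2.

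The respiratory chain sits in the inner mitochondrial membrane. Complexes I and II pass electrons from NADH and succinate to ubiquinone, complex III passes them to cytochrome c and complex IV to oxygen, and complexes I, III and IV pump protons that drive ATP synthesis by complex V. Most subunits are encoded in the nucleus, and the factors NRF1, GABPA, YY1 and ERR are known to bind promoters of many of these genes.

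Promoter sequences show what some of these genes share that their selection did not use. RefSeq promoters (GRCm38.p6, 250 bases before to 50 after each annotated start) were available for 75 of the 92 genes. Both strands were searched for fixed letters. The NRF1 motif GCGCATGCG was in a promoter of 10 of 75 genes (13.3%), against 1.95% of all 27025 genes with listed promoters of the same length. Those 27025 were taken whether expressed here or not. The GABPA motif CCGGAAG was in 19 (25.3%) against 9.93%. The YY1 motif AAGATGGCG was in 7 (9.33% against 1.64%), the ERR motif TCAAGGTCA in 2 (2.67% against 0.466%) and TATAAA in 8 (10.7% against 15.7%). At least 1 of the motifs NRF1, GABPA and YY1 was in a promoter of 30 of 75 genes (40.0%) against 12.7% of all. GCGCATGCG and its reverse complement overlap in the palindrome, so 1 stretch can match on both strands. These are matches of letters, not measured binding.

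The first 5 windows below are the members whose NRF1 match lies wholly within the 120 bases before the start. They run from an electron carrier through complexes I and V to an assembly factor. The last 2 are the broadly expressed and the testis-type isoform of subunit 6b of complex IV, whose signals are given further on. Each window is the 120 bases before the annotated start, read 5′ to 3′ on the gene's strand, and capitals mark NRF1 matches, or the GABPA match in Cox6b1.

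Cycs, chr6:50566570-50566689, minus strand: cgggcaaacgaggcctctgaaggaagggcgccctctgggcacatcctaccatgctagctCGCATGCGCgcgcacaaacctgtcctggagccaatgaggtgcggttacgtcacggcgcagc
Ndufa8, chr2:36049339-36049458, minus strand: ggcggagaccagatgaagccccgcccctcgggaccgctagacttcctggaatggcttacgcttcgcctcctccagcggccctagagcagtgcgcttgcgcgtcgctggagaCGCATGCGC
Atp5g2, chr15:102671048-102671167, minus strand: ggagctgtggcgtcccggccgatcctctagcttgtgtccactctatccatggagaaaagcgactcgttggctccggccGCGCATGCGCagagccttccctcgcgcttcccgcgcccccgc
Atp5k, chr5:108434400-108434519, minus strand: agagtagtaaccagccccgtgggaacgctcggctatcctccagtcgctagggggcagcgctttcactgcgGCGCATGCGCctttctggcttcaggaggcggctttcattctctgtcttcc
Ndufaf4, chr4:24897963-24898082, plus strand: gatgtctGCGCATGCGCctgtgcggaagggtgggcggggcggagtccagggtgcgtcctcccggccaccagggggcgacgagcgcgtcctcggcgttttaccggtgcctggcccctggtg
Cox6b1, chr7:30626115-30626234, minus strand: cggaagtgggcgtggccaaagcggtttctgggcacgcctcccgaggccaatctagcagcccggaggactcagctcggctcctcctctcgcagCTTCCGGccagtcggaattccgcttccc
Cox6b2, chr7:4753095-4753214, minus strand: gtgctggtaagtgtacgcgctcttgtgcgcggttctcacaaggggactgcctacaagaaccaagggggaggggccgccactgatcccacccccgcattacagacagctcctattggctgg

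The NRF1 match begins 61 bases before the start in Cycs, 9 in Ndufa8, 42 in Atp5g2, 50 in Atp5k and 113 in Ndufaf4. The GABPA match of Cox6b1 begins 28 bases before its start, and the Cox6b2 promoter held none of the 5 motifs.

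Values are linear signals as the authors deposited them, scaled so that the mean after trimming 2% at each end was 1500 in every sample. Background was read in each sample from 81 probe sets of sensory receptor genes (olfactory, vomeronasal and bitter taste), at their 95th percentile, and was 136, 253 and 197 in replicates 1, 2 and 3. Of 9 tubercle markers, among them Shh and Hoxd13, 8 were above it in every sample. The sex genes went against 1 label: Xist read 8.05, 118 and 61883 in replicates 1, 2 and 3, and the Y-linked Eif2s3y 4384, 3738 and 37.9. Replicate 3 is therefore called by its number, and results are also given without it. Markers of other cells differed between samples. The summed signal of 21 skeletal muscle genes was 32607, 11316 and 4447 in replicates 1, 2 and 3, with 18, 14 and 8 above background, and Myf5, Myf6 and Ckm above it in none. For 8 hepatocyte genes the sums were 114523, 52473 and 9296, with 8, 5 and 4 above background, and for 7 erythroid genes 86184, 99552 and 81700, with 6 above in each. The globin Hbb-y (59853, 86889 and 77722) carries most of the erythroid sum. The other erythroid genes were less even, with Slc4a1 at 18738, 6337 and 1686 and Klf1 at 3189, 843 and 292. Over the 6 genes above background, the median log2 difference of a sample from the mean of the others, aligned as described further on, was 0.85 in replicate 1 and -1.28 in replicate 3. Of 6 smooth muscle genes, the cells the reporter marks, 3 were above background in every sample, with sums of 6351, 3696 and 3055. The ratio of 3′ to 5′ signal, which grows as amplified RNA gets shorter, was 7.38, 2.21 and 4.42 for Actb and 21.5, 14.9 and 14.1 for Gapdh, highest in replicate 1 for both. For the 18S control it was 1.22, 1.121 and 1.435, highest in replicate 3.

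Nearly all of the 92 genes were expressed in the tubercle by this measure. On the main probe set, the one of highest mean signal for a gene, 83 of 92 were above background in 3 of 3 samples, against 60.5% of all 18193 genes. Counted by probe set, 155 of 184 were (84.2%), against 48.0% of all 45037. The 83 comprised 31 of 34 complex I genes, all 4 of complex II, 9 of 9 of complex III, Cycs, 12 of 17 of complex IV, Ndufa4, all 17 of complex V and all 8 assembly factors. Without replicate 3, 84 genes were above background in both other samples. In a dissected tissue, fewer cells of a type and less RNA per cell cannot be told apart.

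**Figure D1:**
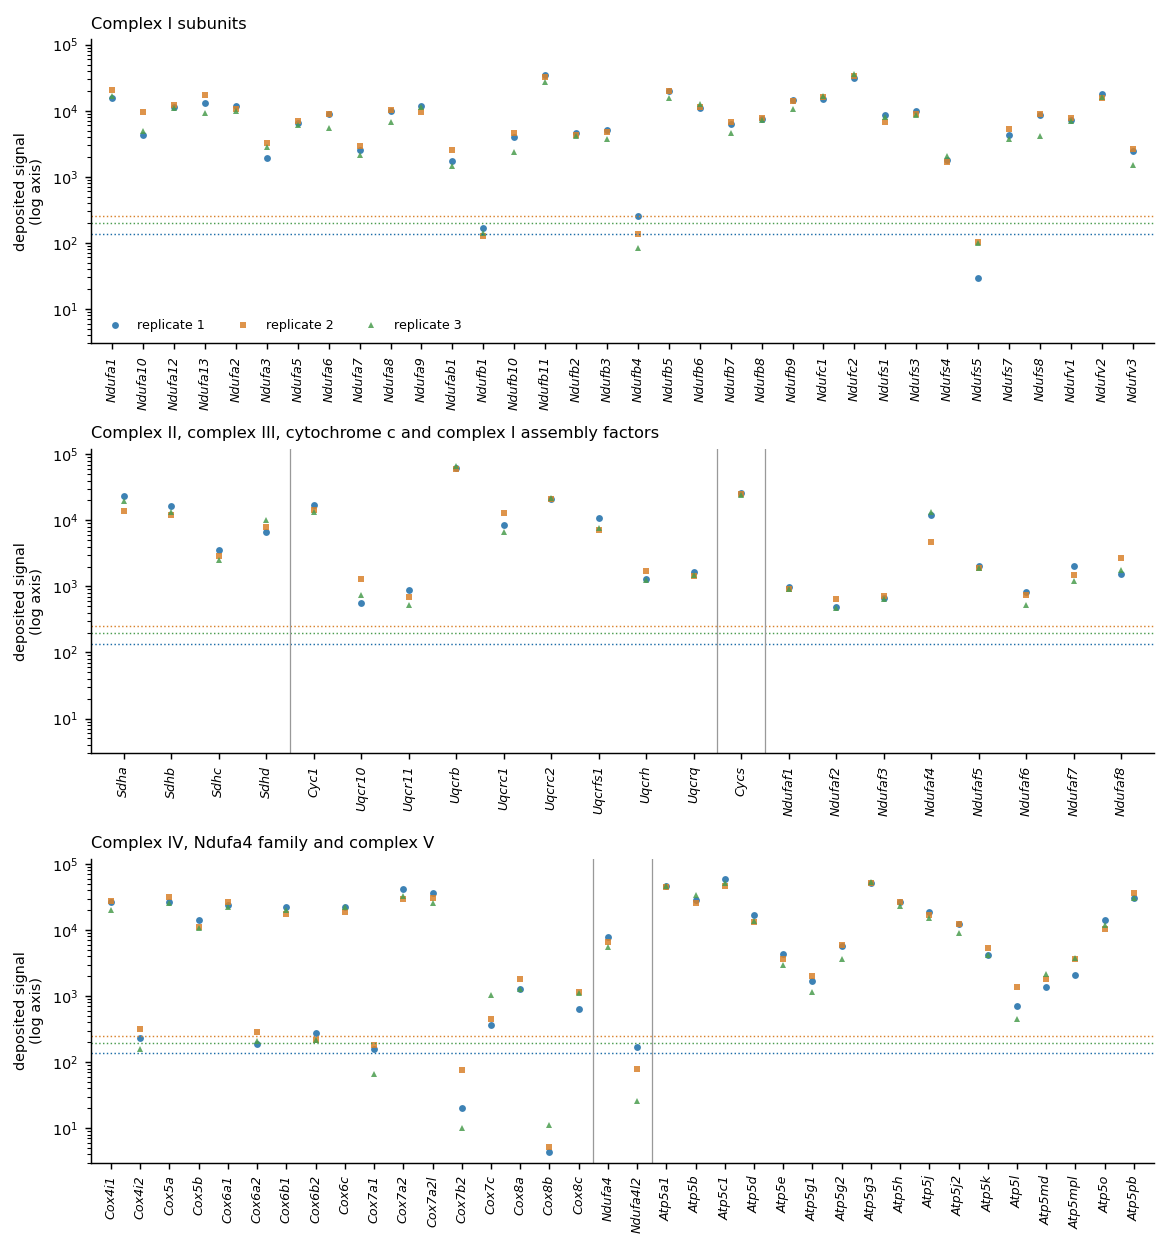
Deposited signal (log axis) of the main probe set of each of the 92 genes in replicates 1, 2 and 3, by complex, with the background of each sample as a dotted line of its colour. Most genes lie far above all 3 lines, and 9 genes, 5 of them complex IV isoforms, do not clear them in every sample; heights of different genes are not comparable, since probe sets differ in brightness.

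The core of complex I, which carries the flavin and the iron-sulphur clusters that take electrons from NADH, was above background throughout, on 16 of 16 probe sets of the 6 genes measured. Ndufv1, the flavin-binding subunit, read 7232, 7846 and 7076 in replicates 1, 2 and 3, and its partner Ndufv2 read 17937, 15364 and 15956. Ndufs1, the largest subunit, read 8728, 6759 and 8061, and Ndufs3 9872, 8939 and 8618. In these 4 genes the highest sample was 1.11 to 1.29 times the lowest. Ndufs7 and Ndufs8 bind the clusters next to ubiquinone. Ndufs7 read 4263, 5215 and 3740, and Ndufs8 8662, 8771 and 4075, so that both were lowest in replicate 3.

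Of the 28 accessory genes of complex I, which surround the core, 25 were above background in every sample. The exceptions were Ndufb1 (166, 129 and 141) and Ndufb4 (259, 135 and 83.7), each above background in replicate 1 only, and Ndufs5 (29.8, 104 and 100), above it in none. Each of these 3 genes had no probe set above background in 3 of 3 samples. Among the rest, Ndufa8 read 9903, 10161 and 6843, Ndufb8 7393, 7877 and 7149, and Ndufa12 11446, 12092 and 11141. Ndufab1, the mitochondrial acyl carrier protein, read 1759, 2575 and 1446.

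Complex II is also an enzyme of the citric acid cycle. Its flavoprotein Sdha read 23247, 13781 and 19343 and its iron-sulphur subunit Sdhb 16714, 12185 and 13560, both highest in replicate 1 and lowest in replicate 2. The membrane anchors differed in order: Sdhc read 3610, 2851 and 2548, and Sdhd 6642, 7810 and 10190, highest in replicate 3.

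In complex III, the catalytic cytochrome c1 (Cyc1) read 17348, 14272 and 13256 and the Rieske iron-sulphur protein Uqcrfs1 10986, 7121 and 7749. Both were highest in replicate 1. The large structural subunits did not follow them: Uqcrc1 read 8570, 12893 and 6654, highest in replicate 2, and Uqcrc2 21280, 20981 and 21643, with the highest 1.03 times the lowest. Cytochrome c, the carrier to complex IV, was even on the main Cycs probe set, at 25976, 25417 and 24499, and on another at 8739, 8246 and 7915. Its other probe sets were not even, and differed in order: replicate 2 was lowest at 14976, 10274 and 14738 and highest at 304, 632 and 340. The testis form Cyct was not above background in any sample.

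All 10 broadly expressed complex IV genes were above background in 3 of 3 samples. Cox4i1 read 26122, 27338 and 19812, Cox5a 26528, 32067 and 25414, and Cox5b 13972, 11286 and 10712. Cox6c read 21943, 18856 and 22252. As deposited, each of these subunits was lowest in replicate 3 except Cox6c, which was lowest in replicate 2. Cox7c stood apart, at 369, 456 and 1053, highest in replicate 3.

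The isoforms of complex IV that are known mainly from certain tissues contrast with their broadly expressed partners: 2 of 7 were above background in 3 of 3 samples. The lung-type Cox4i2 read 233, 319 and 160, above background in replicates 1 and 2. The heart and muscle isoforms Cox7a1 and Cox8b read 156, 182 and 65.4, and 4.37, 5.18 and 11.2, so Cox7a1 was above background in replicate 1 only and Cox8b in none. Cox6a2, also a muscle isoform, was above background in all samples by a small margin, at 190, 285 and 206, on its main probe set, while its other probe set (47.6, 3.97 and 8.08) was above it in none. The muscle markers were highest in replicate 1 and lowest in replicate 3. The main Cox6a2 probe set, as deposited, was highest in replicate 2, as was the background itself (136, 253 and 197). So near background, its order over the samples cannot be set against that of the markers. The part of muscle cells in these signals was not tested.

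Isoforms known from testis were not alike. Cox7b2 (20.0, 76.5 and 10.2) was above background in none, and Cox6b2 (280, 220 and 215) in replicates 1 and 3. Its partner Cox6b1 read 21996, 17499 and 19775. Cox8c was above background in every sample on both of its probe sets, at 644, 1150 and 1106 and at 369, 520 and 535, while 3 germ cell markers (Ddx4, Sycp3 and Dazl) were above it in none. Ndufa4, first assigned to complex I and later found in complex IV, read 7956, 6592 and 5627. Its relative Ndufa4l2, known to respond to low oxygen, read 170, 80.0 and 25.4 and was above background in replicate 1 only.

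**Figure D2:**
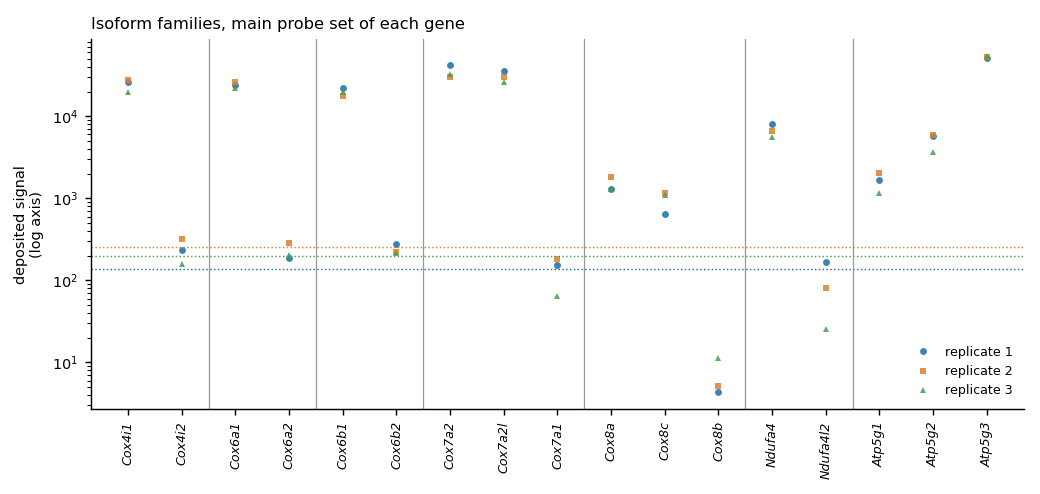
Deposited signal (log axis) of the main probe set of isoform families in replicates 1, 2 and 3, with vertical lines between families and the background of each sample as a dotted line. The broadly expressed forms Cox4i1, Cox6a1, Cox6b1, Cox7a2 and Cox8a clear all 3 lines, while Cox4i2, Cox6b2, Cox7a1, Cox8b and Ndufa4l2 do not clear all of them.

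All 17 genes of complex V were above background in 3 of 3 samples. In the catalytic F1 part, Atp5a1 (alpha) read 45784, 44561 and 46726, and Atp5b (beta), which holds the catalytic sites, 28006, 25992 and 34181. The central stalk subunit Atp5c1 (gamma) read 58889, 47170 and 51120. In these 3 genes the highest sample was 1.05, 1.32 and 1.25 times the lowest. The 3 genes of the proton-carrying c ring encode the same mature protein behind different import sequences: Atp5g3 read 51188, 52222 and 53971, Atp5g2 5674, 5949 and 3673, and Atp5g1 1673, 2049 and 1151. Atp5g3 was even over the samples, and both others were lowest in replicate 3 on these main probe sets. The other Atp5g1 probe set, at 473, 300 and 583, was highest in replicate 3. Atp5o, of the peripheral stalk, read 14301, 10375 and 11787.

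The 8 complex I assembly factors, which build the complex but are not part of it, were above background in every sample. Ndufaf1 read 990, 923 and 916, Ndufaf3 658, 717 and 640, and Ndufaf5 2048, 1891 and 1870, each with little spread. Ndufaf4 read 11929, 4740 and 13621, with replicate 2 far below both others. Ndufaf7 read 2025, 1510 and 1212, and Ndufaf8 1553, 2681 and 1788.

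Samples were next compared over the 155 member probe sets above background in 3 of 3 samples, as the log2 difference of each sample from the mean of the others. For this, samples were aligned on the median of the 21612 probe sets above background in all 3. The median difference was 0.21 in replicate 1, where 115 of 155 were higher (74.2%, against 58.3% of all probe sets), and the median over all probe sets was 0.12. In replicate 2 it was -0.037, with 80 lower (51.6%, against 57.1%), and -0.094 over all. In replicate 3 it was -0.15, with 110 lower (71.0%, against 47.1%), and 0.03 over all. Of the 155, 93 belong to the 7204 brightest of all probe sets, whose own medians were 0.29, -0.29 and 0.04, so bright probe sets in general also had a positive median in replicate 1. In replicate 3 their median was near 0 (-0.042 with alignment on all probe sets).

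These shifts are small, and scaling moves them. Over 4 scalings (the alignment above, none, on all probe sets, or quantile normalization) the members' median stayed above 0 in replicate 1, from 0.05 to 0.61, and below 0 in replicate 3, from -0.23 to -0.15, while in replicate 2 it was above 0 in 2 of 4. The scaling moved all probe sets too, whose median in replicate 1 ranged from -0.038 to 0.52. Against that median, members were lower in replicate 3 and higher in replicate 2 under each scaling. In replicate 1 they were higher except with quantile normalization (0.059 against 0.091). The share of members higher in replicate 1 was 54.8% with no alignment, 91.6% with alignment on all probe sets and 58.1% with quantile normalization, and in replicate 2 it was 48.4% as aligned and 64.5%, 20.0% and 67.7% with these others. Single samples moved the medians as well. Without replicate 3, the median was 0.17 in replicate 1 and -0.17 in replicate 2. Without replicate 1, it was 0.058 in replicate 2, where its sign turned, and -0.058 in replicate 3. Without replicate 2, it was 0.23 in replicate 1 and -0.23 in replicate 3. The muscle and hepatocyte sums and the median difference of the erythroid genes were also highest in replicate 1 and lowest in replicate 3. The 3′ to 5′ ratios of Actb and Gapdh were highest in replicate 1. Their part in the shifts was not tested.

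By complex, the median difference of replicate 1 was 0.15 for complex I, 0.33 for II, 0.19 for III, 0.24 for Cycs, 0.30 for IV, 0.16 for V and 0.28 for the assembly factors. All stayed above 0 under the 4 scalings except complex I, which was -0.0069 with no alignment. In replicate 3 the medians of complexes I, III, IV and V were -0.15, -0.12, -0.21 and -0.11, and below 0 under each scaling. The complex II median was 0.15 there, and above 0 under each scaling, but it rests on 8 probe sets of 4 genes, with a dim one of Sdha at 1.28. On main probe sets its genes were split, with Sdha at 0.14 and Sdhd at 0.53, and Sdhb at -0.047 and Sdhc at -0.31. In replicate 2, complex II (-0.31) and the assembly factors (-0.23) were below 0 under each scaling. The signs of the others turned, among them complex I (0.10 as aligned, -0.21 with alignment on all probe sets). The median of the 7204 brightest of all probe sets was also below 0 in replicate 2 under each scaling, from -0.60 to -0.045.

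**Figure D3:**
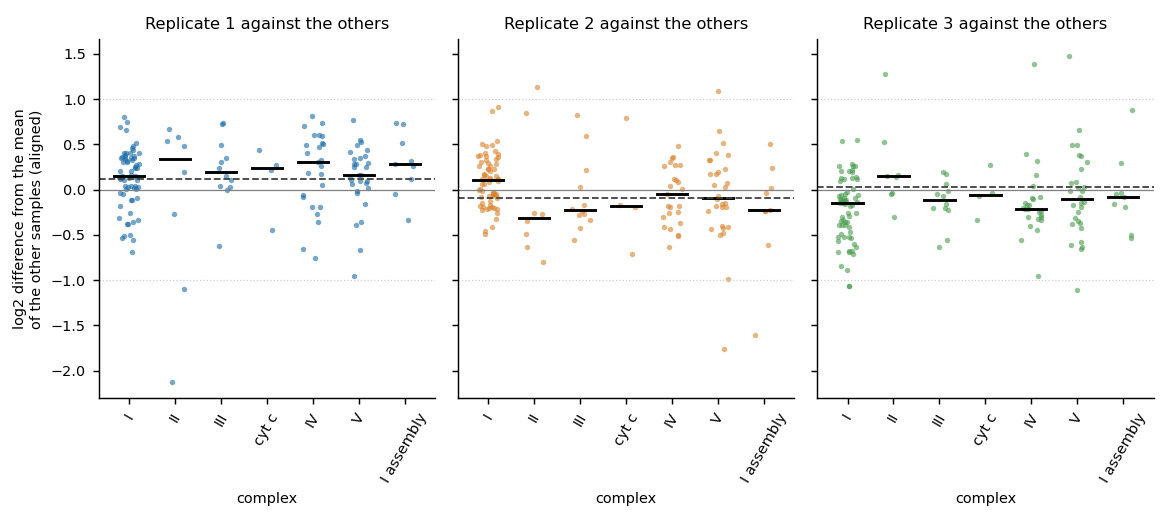
Aligned log2 difference of each replicate from the mean of the others for member probe sets above background in 3 of 3 samples, by complex (points), with the complex median (bar), the median of all probe sets (dashed line) and 2-fold limits (dotted lines); the single Ndufa4 probe set is left out. Medians lie above 0 in replicate 1 and, except for complex II, below 0 in replicate 3; with no alignment complex I falls to -0.0069 in replicate 1, and several signs in replicate 2 turn with the scaling.

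Complex V was also split into an F1 part, a c ring and a stalk and membrane part, by groups set after the values were seen. All 9 probe sets of the F1 part, from 5 genes, were higher in replicate 1 (median 0.29) and 8 of 9 lower in replicate 2 (median -0.40). Both medians kept their sign under the 4 scalings, but the counts did not hold: the share higher in replicate 1 was 66.7% with no alignment and 77.8% with quantile normalization, and in replicate 2 it was 11.1% as aligned and 33.3% with either of these. The c ring, with 5 probe sets of 3 genes, went the same way, at medians of 0.33 in replicate 1 and -0.19 in replicate 2. As aligned, all 5 were higher in replicate 1 and 3 of 5 lower in replicate 2, and both medians kept their sign under each scaling. The stalk and membrane part had medians of 0.04 and 0.17 in the same samples, with 9 of 16 and 11 of 16 probe sets higher. Both of its medians' signs turned with the scaling. Over all probe sets, as aligned, 58.3% were higher in replicate 1 and 42.9% in replicate 2. Among the 7204 brightest these shares were 77.4% and 23.9%, with medians of 0.29 and -0.29. Of the F1 probe sets, 7 of 9 belong to the brightest, as do 2 of 5 of the c ring and 12 of 16 of the stalk and membrane part. The difference between the parts was not tested.

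Few member probe sets moved by more than 2-fold. The count was 2 of 155 in replicate 1 (1.29%, against 14.0% of all probe sets), 4 in replicate 2 (2.58%, against 12.1%) and 6 in replicate 3 (3.87%, against 5.32%). Among the 7204 brightest probe sets the shares were 5.77%, 6.66% and 2.11%. These are not like for like with the members' shares, since 93 of the 155 members belong to the brightest. Of the member probe sets over 2-fold, only those of Ndufs8, in replicate 3, and of Ndufaf4, in replicate 2, belong to them. The replicate 1 count was 16 with alignment on all probe sets, 5 without replicate 2 and 6 without replicate 3. These were 8 probe sets of 7 genes, and 4 of the 8 were main probe sets.

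Among main probe sets, the largest differences in replicate 3 were those of Cox7c, Ndufaf4 and Sdhd (1.39, 0.88 and 0.53) upward, and of Atp5l, Ndufs8 and Ndufb10 (-1.11, -1.07 and -0.85) downward. Cox7c is a small complex IV subunit. Its other probe set (134, 153 and 457) was above background in replicate 3 only, so it gives no order for replicates 1 and 2. For Ndufs8, 5 of 6 probe sets were lowest in replicate 3, and the sixth, at 612, 901 and 874, was lowest in replicate 1. Atp5l, the g subunit of the ATP synthase membrane part, read 703, 1352 and 444.

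In replicate 2 the assembly factor Ndufaf4 was lowest (-1.61), and its other probe set had the same order (4921, 3742 and 5174) at a difference of -0.61. Sdha and Cox7c followed, at -0.81 and -0.64, and the highest were Atp5l (1.09), Ndufa10 (0.87) and Uqcr10 (0.82). Uqcr10 is a small complex III subunit, at 570, 1299 and 732. In replicate 1, Ndufaf7, Uqcr11 and Ndufaf4 were highest (0.74, 0.73 and 0.73) and Cox7c, Atp5mpl and Cox8c lowest (-0.75, -0.67 and -0.65). Each of these 18 differences kept its sign under the 4 scalings, which was likely beforehand for differences picked as the largest.

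Spread between samples was low for most members. The median SD of aligned log2 signal over the 3 samples was 0.27 for the 155 member probe sets, against 0.36 for all probe sets and 0.32 for the 7204 brightest. An SD below 0.5 was found for 141 of 155 (91.0%, against 69.5% of all). By complex the median SD was 0.23 for I, 0.36 for II, 0.24 for III, 0.28 for IV, 0.28 for V and 0.30 for the assembly factors. The smallest among main probe sets were those of Ndufv1 (0.066), Ndufaf3 (0.067), Ndufb8 (0.078), Atp5pb (0.079) and Ndufa12 (0.080), which belong to complex I, its assembly and the peripheral stalk of complex V. Without replicate 3 the members' median SD was 0.22.

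**Figure D4:**
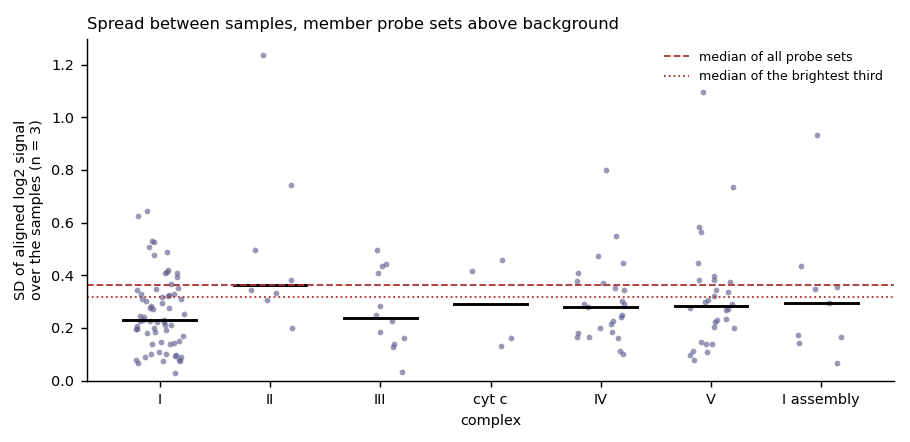
SD of aligned log2 signal over the 3 samples for each member probe set above background in 3 of 3 samples, by complex (points), with the complex median (bar) and the medians of all probe sets (0.36) and of the 7204 brightest (0.32); the single Ndufa4 probe set is left out. Most points lie under both lines, and the highest, at 1.24 in complex II, is a minor probe set of Sdha.

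Probe sets of 1 gene did not always read alike, which limits what a single one says. Of 52 genes with more than 1 probe set, 16 had some but not all above background in 3 of 3 samples. Among them were Ndufc2, Ndufb9, Cox5b, Sdha, Ndufa12, Atp5g2, Uqcrq, Uqcr10, Ndufs4 and Ndufa3. Sdha shows the pattern: its probe sets at 23247, 13781 and 19343 and at 12909, 9031 and 11850 had the same order, while a dim one at 151, 701 and 775 ran the other way, with replicate 1 lowest (-2.13). A minor Sdhc probe set read 487, 1594 and 845, also lowest in replicate 1, where the main Sdhc probe set was highest. In Atp5c1 the highest sample was 1.25 times the lowest on the main probe set, and the other read 1367, 619 and 2519. Among 47 genes with several probe sets above background, all of them had the same sign of difference in 29 genes for replicate 1, 24 for replicate 2 and 26 for replicate 3.

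**Figure D5:**
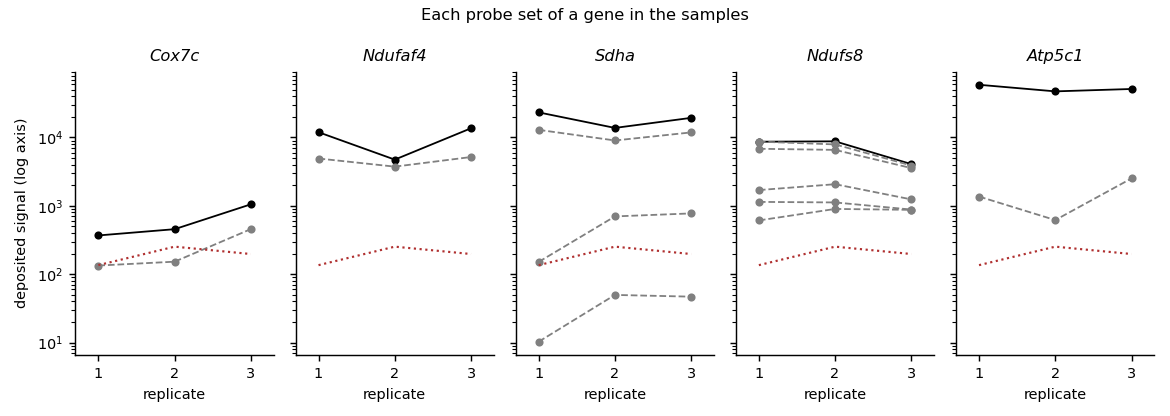
Deposited signal (log axis) of every probe set of Cox7c, Ndufaf4, Sdha, Ndufs8 and Atp5c1 in replicates 1, 2 and 3 (black, main probe set; grey, others; red dots, background). The dimmer Cox7c line clears background in replicate 3 only, the Ndufaf4 lines share an order, and minor probe sets of Sdha and Atp5c1 run differently from the main one.

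With limma, replicate 3 (visible fingers) was contrasted with replicates 1 and 2, over the 29065 that any sample showed above background, and p-values were adjusted over all of them by the Benjamini-Hochberg method. It called 0 probe sets (0%) at an adjusted p under 0.05, and 604 (2.08%) had an unadjusted p under 0.05. Of 169 member probe sets tested, 0 were called and 1 had an unadjusted p under 0.05. This was the dimmer Cox7c probe set, which entered the fit through replicate 3 alone, the one sample where it was above background, so its difference is only a bound and is not given. The main Cox7c probe set differed by 1.39 (SE 0.60) and that of Ndufs8 by -1.07 (SE 0.61), both with an adjusted limma p of 1. The fit has 1 residual degree of freedom, from replicates 1 and 2, and takes the lone sample to vary like them. It also draws each variance towards a value shared by all 29065 probe sets. An SE therefore holds little of a probe set's own spread, and p-values do not measure spread among embryos with visible fingers. Even Xist, at a log2 difference of 11.0 in replicate 3, was not called. This fit could thus hardly call a member whatever its difference, and the lack of calls says little about the members. Landmark, sex genes and embryo cannot be told apart here.

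Other genes of the pathway were measured from lists of regulators, assembly factors and neighbours in metabolism, and limma called 0 of their probe sets, as of all others. Of 17 regulators and factors of mitochondrial DNA upkeep, 16 were above background in 3 of 3 samples. Gabpa read 11705, 9838 and 10387, Nrf1 1747, 1716 and 2686, Yy1 28427, 28224 and 24790, and the mitochondrial transcription factor Tfam 3183, 5020 and 2605. The coactivator Ppargc1a read 1518, 892 and 1166. These factors had no common order over the samples. The list median was 0.19, -0.053 and -0.093 in replicates 1, 2 and 3, and its sign in replicate 2 turned with the scaling (0.13 with no alignment).

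Of 26 assembly factors of complexes II to V, 23 were above background in every sample, with medians of 0.19, -0.014 and -0.045, of which that of replicate 2 ran from -0.33 to 0.17 over the scalings. Lyrm7, which helps insert the Rieske protein, was above it in none. The copper chaperone Cox17 read 1578, 1740 and 828, and Cox19, of the same process, 3333, 1463 and 2102. Of 6 further complex I assembly factors, 5 were above background in each sample, with medians of 0.11, -0.57 and 0.10 (replicate 1 at -0.043 with no alignment). Nubpl, which supplies iron-sulphur clusters to complex I, read 4722, 2731 and 4518 and was lowest in replicate 2, as was Ndufaf4.

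All 12 citric acid cycle genes measured were above background, with medians of 0.42, -0.46 and 0.02 (replicate 3 at -0.068 with alignment on all probe sets). Citrate synthase (Cs) read 34429, 24544 and 28187 and Idh3b 21985, 11985 and 13039. Both were highest in replicate 1 and lowest in replicate 2, the order of Sdha and Sdhb. The 7204 brightest of all probe sets had this order too, with medians of 0.29, -0.29 and 0.04, so it was not particular to these genes. Dld read 3442, 7018 and 5349, with replicate 1 lowest. The 6 carriers and pores that move phosphate, ADP and ATP across the mitochondrial membranes were above background throughout, with medians of 0.30, -0.30 and -0.034. The ATP carriers Slc25a4 and Slc25a5 read 24117, 20873 and 25156, and 23463, 21809 and 20277.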

How the data were processed

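The deposited values are linear intensities, 1 for each probe set on each array. The submitters' processing notes name the scanner software GCOS, whose version and settings were not given in the sources used here. Per the labels' protocols, total RNA was amplified in 2 rounds. No scanner files were used. After 64 controls were removed from 45101 probe sets, 34945 with 1 symbol in the platform annotation were named.

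Signals were floored at 1 before taking log2. Differences and SDs are after alignment on the median of probe sets above background in 3 of 3 samples, while printed signals are as deposited. The landmark contrast used lmFit and eBayes in limma 3.58.1, two-sided, tested first on simulated data. The 3 arrays limit the precision of every value. Whether the embryos shared a litter is not labelled.

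Members, complexes and gene lists were chosen with earlier results of these data known. Named genes were catalytic subunits, isoform families, genes not above background, the 3 highest and 3 lowest per sample, the 5 of smallest SD and the 10 whose probe sets disagreed most. Other examples (Ndufa8, Ndufab1, Ndufaf1, Ndufaf5, Ndufaf8, and those of the pathway lists) were chosen after their values were seen. Alternatives were the background percentile, cross-matching probe sets, scaling, the fold threshold, 1 probe set per gene, the filter and variance trend in limma, and leaving out each sample.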

Additional observations from a re-analysis of the deposited data

How the results depend on the processing

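Counts of genes and probe sets above background stayed within 1.5 times under every alternative run (75 to 84 genes, 110 to 158 probe sets), and limma called 0 member probe sets under each of 9 alternatives; over all probe sets it called 86 with alignment on all probe sets and 1 with the filter of 3 of 3 samples. Alignment on all probe sets moved the median difference to 0.61 in replicate 1 and -0.35 in replicate 2, and the median SD to 0.42. The replicate 2 median was 0.15 with no alignment and 0.14 with quantile normalization. Probe sets over 2-fold in replicate 1 numbered 16 with alignment on all probe sets, 1 with the 99th percentile, without _x_at and _s_at probe sets or with quantile normalization, 0 with main probe sets only, and 5 to 6 when 1 sample was left out. In replicate 2 they numbered 8 with no alignment and 2 with main probe sets only. In replicate 3 they numbered 3 without _x_at and _s_at probe sets or with main probe sets only. At 1.5-fold the counts were 24, 17 and 22 in replicates 1, 2 and 3. For these the cause was not tested. The landmark contrast could not be fitted with a sample left out, since no residual degree of freedom remains. No paired analysis was possible because there is 1 group. Signals near background, as for the tissue-limited complex IV isoforms, have little precision.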
